A study of Macaca mulatta with 7 samples.

Results

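The genes described here are 29 interferon response genes, taken by symbol from a fixed list and followed 1 by 1 through the major cell classes of rhesus monkey (Macaca mulatta) spinal cord. Of the 29, 28 carried their symbol in the deposited gene tables, out of 28966 gene names in all, and USP18 was recovered through the reference table of gene names. Sums and counts below refer to the 28, and USP18 is given on its own.

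The study cut and removed a piece of thoracic cord in adult monkeys and examined, among other regions, the spared lumbar cord below the lesion. Single-nucleus RNA-seq gave 7 libraries, 1 per group. The intact cord was sampled at the cervical, thoracic and lumbar level in an untreated monkey aged 5 years, and the spared lumbar cord was sampled 7 and 14 days after the complete injury (dpi) in monkeys aged 7 years, and at 30 dpi and 6 months after injury (mpi) in monkeys aged 6 years. Each time after injury is 1 female monkey, and by the study's account the 3 intact samples come from a single animal. Time, animal, age and library preparation change together and cannot be told apart, and the intervals below cover counting error only.

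Interferons are secreted proteins that cells release when they sense foreign or misplaced nucleic acids. Type I interferon binds IFNAR1 and IFNAR2 at the cell surface, and the JAK1 and TYK2 kinases then phosphorylate STAT proteins. Of these, STAT2 joins a complex with IRF9 that binds interferon-stimulated response elements (ISRE) in the promoters of their target genes. In the nervous system microglia are a well-known responding class, and oligodendrocytes, astrocytes and neurons also carry the receptor.

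The 7 libraries held 69332 barcodes, of which 63726 nuclei were kept, with a median of 3191 to 7356 UMIs per nucleus. The lowest median was that of the 6 mpi library. Between 1.27% and 1.58% of a library's barcodes also occurred in another library. Classes were named from marker genes, and 5 had at least 50 nuclei in every library, namely microglia/macrophage-like (1652 to 4598 nuclei a library), oligodendrocyte-like, oligodendrocyte precursor-like, astrocyte-like and neuron-like nuclei. No cluster at the resolution used had a listed gene among its 10 leading genes. A level is the sum of a gene's UMIs in a class of a library per 1000000 UMIs of that class (CPM). A gene was called at least 2-fold higher when its level plus 1 was 2 or more times that of the intact lumbar library plus 1, among genes with 20 or more UMIs in both libraries together. A log2 ratio of a gene to the intact lumbar library is taken on that scale, which understates the change of low genes. A fold is the ratio of the levels themselves, and a log2 ratio of 6 mpi to 7 dpi is taken on them too. The median log2 ratio of all genes with 20 UMIs or more in each of the libraries compared was over 0.1 from 0 at 14 dpi (-0.11) and 6 mpi (0.19) in microglia/macrophage-like nuclei, at 7 dpi (0.14) and 6 mpi (0.17) in oligodendrocyte-like nuclei, at 6 mpi in precursor-like nuclei (0.13), and at 7 dpi and 6 mpi in astrocyte-like nuclei (0.17 both times).

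In the genome of the Mmul_10 build, 28 of the 29 genes were matched to a RefSeq gene with its position. The ISRE core (GAAANNGAAA, either strand) lay within 250 bases before the annotated start of 7 of these 28 genes (25%), against 635 of 21102 protein-coding genes (3.01%), and 4 of the 28 held it more than once. Among the 7 genes, IFI6, IFI44, PARP14 and HERC5 were at least 2-fold higher in 4 or more classes at some time. PARP14 was at least 2-fold higher at some time in every class compared except microglia/macrophage-like nuclei. Its log2 ratio in oligodendrocyte-like nuclei was below 0 from 14 dpi on without removal of doublets. The RSAD2 level in microglia/macrophage-like nuclei stayed near that of the intact cord. The windows of IFI6, IFI44, PARP14 and RSAD2 are shown, with the ISRE core in capitals. They lie at chr1:197051513-197051572 (+ strand, IFI6), chr1:145763683-145763732 (- strand, IFI44), chr2:153638740-153638799 (- strand, PARP14) and chr13:101901790-101901849 (- strand, RSAD2), each read 5′ to 3′ towards the gene.
IFI6: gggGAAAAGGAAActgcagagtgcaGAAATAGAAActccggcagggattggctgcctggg
IFI44: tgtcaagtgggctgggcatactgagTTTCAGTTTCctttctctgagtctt
PARP14: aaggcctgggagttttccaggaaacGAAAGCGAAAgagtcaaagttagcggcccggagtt
RSAD2: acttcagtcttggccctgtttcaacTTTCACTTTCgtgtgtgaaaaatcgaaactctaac
A match of letters is a description and not a site of binding.

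Microglia/macrophage-like nuclei held the highest level among the 5 classes of 18, 17 and 18 of the 28 genes in the intact cervical, thoracic and lumbar cord. After injury the counts were 22, 18, 20 and 22. Of all genes with 20 or more UMIs in the 5 classes of a library, 25.7% to 30.5% were highest in these nuclei. The summed level of the 28 genes was higher than in any intact library at every time after injury in all 5 classes. It was 1039, 1021 and 996 CPM in microglia/macrophage-like nuclei of the intact cervical, thoracic and lumbar cord, and 2263, 1694, 1693 and 1644 at 7, 14 and 30 dpi and 6 mpi. The log2 ratio to the intact lumbar cord was 1.18 at 7 dpi (95% interval 1.15 to 1.22) and 0.72 at 6 mpi (0.68 to 0.77). The level was thus highest at 7 dpi. The log2 ratios recentred on the median of all genes were 0.87, 0.85 and 0.53 from 14 dpi on, so that the nearly equal levels at these times depend on the scaling. With no lower limit on the score of a second class in naming clusters, the ratios were 0.98 at 30 dpi and 0.97 at 6 mpi. A cluster led by ITGAX and GPNMB (1277 nuclei at 30 dpi) was then left unnamed. So was a cluster led by GPNMB and CHIT1 (1171 nuclei at 6 mpi). The later microglial values thus depend on keeping these clusters. Oligodendrocyte-like nuclei started at 197, 206 and 179.8 and reached 466, 383, 309 and 225. Their log2 ratio went from 1.38 (1.32 to 1.43) at 7 dpi to 1.09 (1.03 to 1.15), 0.78 (0.73 to 0.84) and 0.33 (0.25 to 0.40), a lower value at each later time. The 6 mpi value depends on the processing, at 0.68 at Leiden resolution 2, 0.22 against the mean of the intact libraries and 0.16 when recentred on the median of all genes. At resolution 2, 11 of 22 genes were called at least 2-fold higher, and the share of all genes at that setting was not computed. The class then took in a cluster of 401 nuclei led by GPNMB and CCL3, which scored second for microglia/macrophage markers. Of its nuclei, 8 came from the intact lumbar library and 146 from 6 mpi. Its part in these values was not tested.

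Astrocyte-like nuclei held 267, 283 and 242 CPM in the intact libraries and 804, 894, 719.6 and 511 after injury, with the highest value at 14 dpi and log2 ratios of 1.73, 1.88, 1.57 and 1.08. In oligodendrocyte precursor-like nuclei the intact levels of 274, 276 and 239 were followed by 589, 493, 514 and 468, and the log2 ratio was still 0.97 at 6 mpi. Neuron-like nuclei had the smallest ratios, with 257, 258 and 255 in the intact cord and 390.4, 328, 331 and 269 after injury (log2 ratios of 0.61, 0.36, 0.37 and 0.08), and at 6 mpi the counting interval overlapped that of the intact thoracic library. The astrocyte values rest on 98, 251, 147 and 117 nuclei after injury. The 3 intact libraries, from a single monkey, spanned far less than the step to 7 dpi in each class. In all 5 classes the intact lumbar library, the reference of the ratios, was the lowest of the 3.

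**Figure D1:**
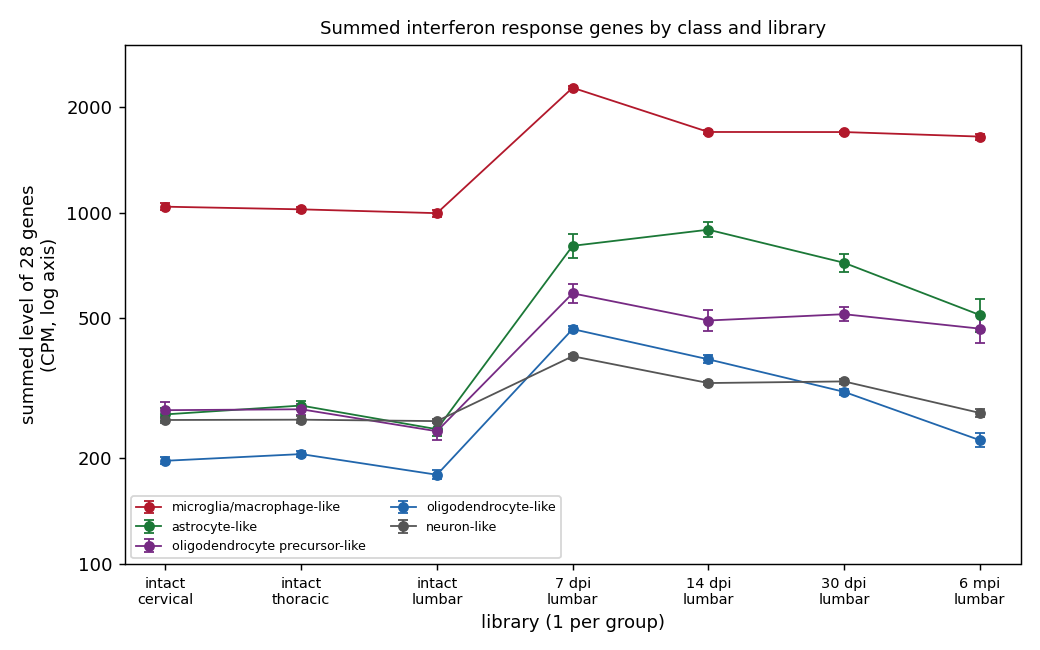
Summed level of 28 interferon response genes (y axis, CPM, log axis) in each of the 7 libraries (x axis, 1 per group) for 5 classes; bars are 95% Poisson intervals of the summed counts. In microglia/macrophage-like nuclei the level went from 996 in the intact lumbar library to 2263 at 7 dpi and 1644 at 6 mpi, and in oligodendrocyte-like nuclei from 179.8 to 466 and 225.

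The number of genes at least 2-fold higher is given beside the share of all tested genes. Listed genes with 20 or more UMIs in the intact lumbar library alone numbered 21 in microglia/macrophage-like and 16 in oligodendrocyte-like nuclei. There were 13 in astrocyte-like, 9 in precursor-like and 24 in neuron-like nuclei. Any further genes tested passed the filter only with the UMIs of the injured library added, and were more easily called higher than lower. The same filter held for all genes. In microglia/macrophage-like nuclei 21 of 27 genes with enough UMIs were at least 2-fold higher at 7 dpi, against 8.84% of all genes. The count was 14 of 27 at 14 dpi (background 5.58%), 13 of 27 at 30 dpi (7.79%) and 12 of 26 at 6 mpi (13.1%). Oligodendrocyte-like nuclei had 14 of 24 at 7 dpi (background 6.15%), 13 of 21 at 14 dpi (3.39%), 10 of 22 at 30 dpi (2.94%) and 6 of 18 at 6 mpi (6.69%). The median log2 ratio of the genes in oligodendrocyte-like nuclei was 1.08 at 7 dpi and 0.57 at 6 mpi, beside 0.15 and 0.15 over all genes. The medians in microglia/macrophage-like nuclei were 1.54 and 0.91, beside 0.05 and 0.20. The share of listed genes called was thus several times the background at 7 dpi in both classes, and nearer to it at 6 mpi.

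Astrocyte-like nuclei had 13 of 16 genes at least 2-fold higher at 7 dpi (background 13.8%), 15 of 17 at 14 dpi (5.02%), 12 of 17 at 30 dpi (7.55%) and 8 of 16 at 6 mpi (12.2%). In oligodendrocyte precursor-like nuclei the counts were 10 of 15 (4.38%), 8 of 16 (3.01%), 12 of 20 (5.39%) and 7 of 13 (8.60%). Neuron-like nuclei had 4 of 27 at 7 dpi (1.41%), 4 of 28 at 14 dpi (1.04%), 2 of 28 at 30 dpi (1.02%) and 1 of 27 at 6 mpi (1.82%). Adding 0.1 CPM in place of 1 gave 9, 9, 9 and 5 calls in neuron-like nuclei, beside 5.02%, 4.10%, 4.11% and 5.66% of all genes. No listed gene was called at least 2-fold lower in microglia/macrophage-like nuclei, where 5.68%, 4.18%, 6.11% and 4.60% of all genes were at the 4 times. The same held for oligodendrocyte-like (background 1.88%, 2.16%, 1.78% and 2.19%), precursor-like (3.24%, 3.75%, 2.49% and 3.89%) and neuron-like nuclei (0.687%, 0.734%, 0.736% and 0.764%), and for astrocyte-like nuclei up to 30 dpi (7.32%, 3.67% and 5.53%). The only call of a lower level was IFIT2 in astrocyte-like nuclei at 6 mpi, with 25 UMIs in the intact lumbar library and 0 of 658958 UMIs at 6 mpi (7.22% of all genes were called lower there). Without removal of doublets its log2 ratio was 1.59, so that the direction rests on which nuclei were kept.

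Some genes were at least 2-fold higher at all 4 times. Of the 26 genes tested at each time there were 11 in microglia/macrophage-like nuclei, against 1.94% of all genes (IFI6, IFI44, IFIT1, IFIT2, IFIT3, IFIT5, MX1, OAS2, OASL, XAF1 and HERC5). Oligodendrocyte-like nuclei had 6 of 18, against 0.619% (IFI44, IFI44L, MX1, IRF9, PARP14 and HERC6). Without removal of doublets PARP14 and IFI44L would leave this list, since the log2 ratio of PARP14 was below 0 from 14 dpi on and that of IFI44L at 6 mpi. Astrocyte-like nuclei had 8 of 16, against 0.947% (IFI44, IFI44L, IFIT1, IFIT3, MX1, PARP14, HERC5 and HERC6). Precursor-like nuclei had 4 of 13, against 0.391% (IFI6, IFI44, MX1 and HERC6), and neuron-like nuclei 1 of 27, IFI44, against 0.101%. Genes with under 20 UMIs in the intact lumbar library entered these lists only with the UMIs of the injured libraries added. IFI44 in precursor-like nuclei was among them, and the same filter held for all genes. IFI44 was the gene common to these 5 lists, and MX1 to 4 of them, but the neuron-like levels of IFI44 were 1.08% to 1.48% of the microglial ones after injury, beside a median of 1.02% to 1.60% for the microglia markers.

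**Figure D2:**
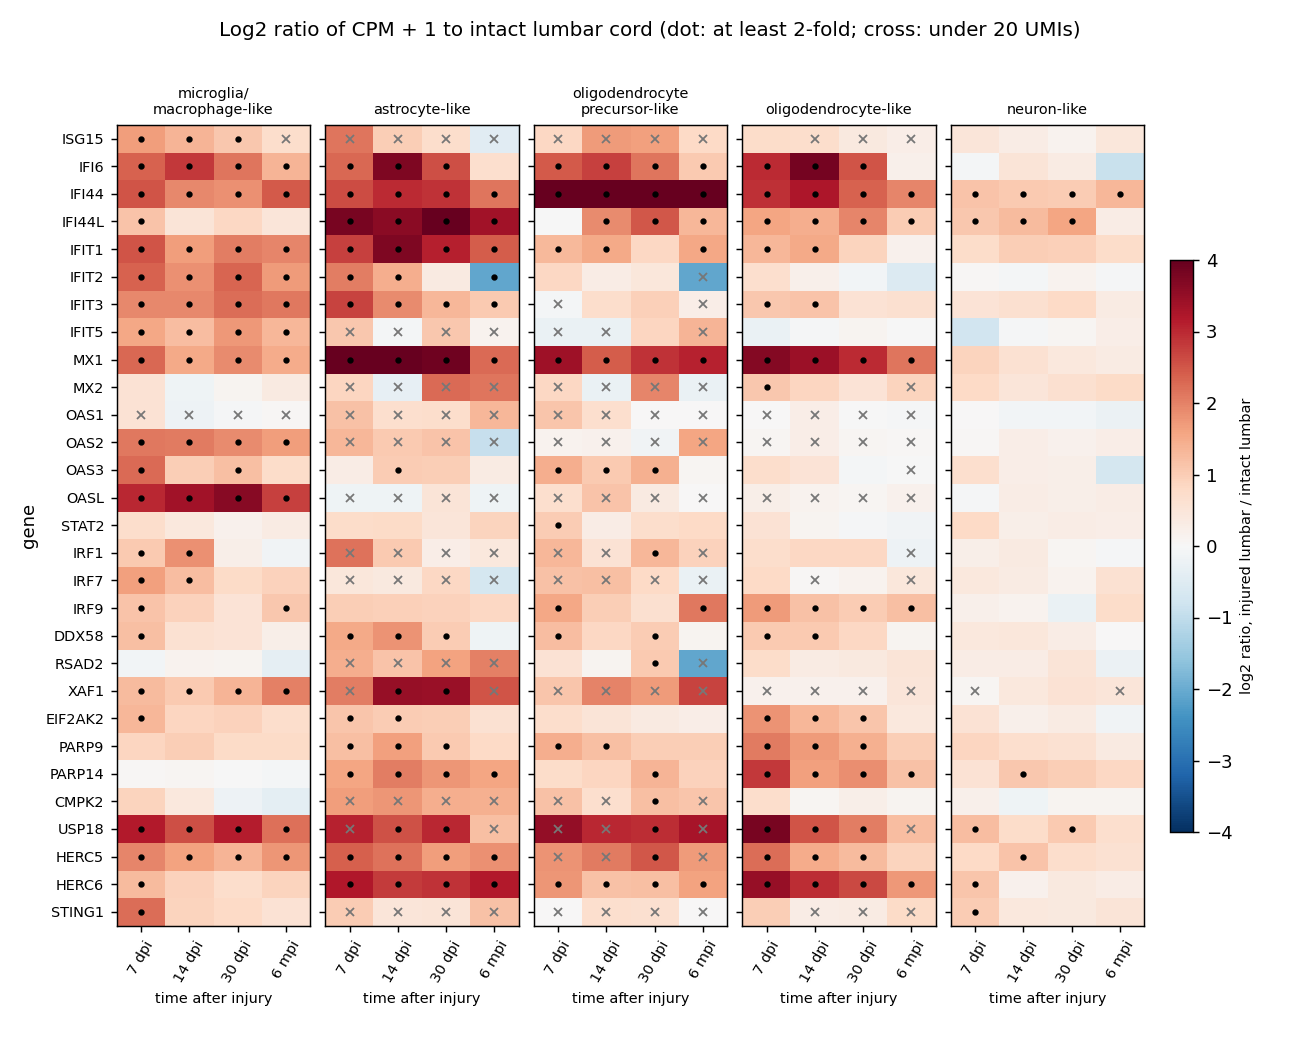
Log2 ratio of the level plus 1 CPM to the intact lumbar cord (colour, saturated at 4) for 29 genes (rows) at 4 times after injury (columns) in 5 classes; a dot marks a gene at least 2-fold apart and a cross a gene with under 20 UMIs. At 7 dpi MX1 stands at 2.29 in microglia/macrophage-like, 3.66 in oligodendrocyte-like and 4.35 in astrocyte-like nuclei, and PARP14 at 0.04, 2.82 and 1.59.

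Among the sensors of foreign nucleic acid is DDX58, which encodes the RNA helicase RIG-I (chr15:51361635-51433265). It stood at 74.5, 63.7 and 70.7 CPM in microglia/macrophage-like nuclei of the intact libraries and at 166, 109, 104 and 82.6 after injury. In oligodendrocyte-like nuclei it went from 28.96, 28.7 and 25.5 to 53.7, 53.5, 46.2 and 27.9, and in astrocyte-like nuclei from 38.4, 36.5 and 36.3 to 106, 128, 74.8 and 31.9. At 7 dpi the DDX58 level was higher by 2.34-fold (95% interval 2.13 to 2.58) in microglia/macrophage-like nuclei and by 2.92-fold (95% interval 2.26 to 3.74) in astrocyte-like nuclei. DDX58 was called at 7 dpi in 4 classes and was within 2-fold of the intact lumbar level in all 5 at 6 mpi. Neuron-like nuclei were at 1.36-fold at 7 dpi and at 1.39-fold at 14 dpi, their highest.

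EIF2AK2, the kinase PKR that stops translation on double-stranded RNA (chr13:71756058-71807916), showed a similar course. Its levels after injury were 238, 172, 179 and 154 in microglia/macrophage-like nuclei, from 104, 89.02 and 93.6 intact, and 73.5, 53.2, 45.5 and 27.8 in oligodendrocyte-like nuclei, from 20.3, 20.8 and 20.6. At 7 dpi the oligodendrocyte level was higher by 3.57-fold (95% interval 3.23 to 3.95) and the microglial one by 2.54-fold (95% interval 2.34 to 2.76). In neuron-like nuclei the difference was 1.499-fold (95% interval 1.45 to 1.55).

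STING1, the adaptor that relays cytosolic DNA, had its highest level among the 5 classes in microglia/macrophage-like nuclei, beside at most 1.52 CPM in the other 4. Its microglial levels were 8.27, 10.5 and 11.3 in the intact libraries and 57.4, 22.1, 20.3 and 17.5 after injury. The 7 dpi library thus stood alone, at 5.06-fold (95% interval 4.04 to 6.42) the intact lumbar level, and 6 mpi was lower than 7 dpi by a log2 ratio of -1.71 (-2.01 to -1.42). In oligodendrocyte-like nuclei STING1 had 3 UMIs in the intact lumbar library and 27 at 7 dpi, a level of 1.23. In neuron-like nuclei 8 and 45 UMIs gave a log2 ratio of 1.02.

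The 2′-5′ oligoadenylate synthetases OAS1, OAS3 and OAS2, which activate RNase L, are neighbours on chromosome 11. The OAS-like gene OASL lies further along it and is not counted among these synthetases here. OASL was at 1.26, 1.34 and 1.64 in intact microglia/macrophage-like nuclei and 20.5, 25.96, 31.6 and 16.6 after injury, 12.5-fold (95% interval 7.08 to 24.5) at 7 dpi. OASL had the largest log2 ratio of the 28 genes in that class at each of the 4 times. OAS2 went from 5.46, 6.45 and 5.46 to 26.6, 26.01, 22.8 and 19.8. In oligodendrocyte-like nuclei OASL had at most 6 UMIs and OAS2 at most 9 in any library, so that neither could be called. OAS3 was called in microglia/macrophage-like nuclei at 7 dpi (2.18 to 14.2) and 30 dpi. It was also called in precursor-like nuclei at 7, 14 and 30 dpi and in astrocyte-like nuclei at 14 dpi. Astrocyte-like nuclei held its highest level among the 5 classes in each of the 7 libraries. OAS1 had at most 14 UMIs in any library of microglia/macrophage-like nuclei and was not tested there. In neuron-like nuclei its levels of 0.812, 1.41, 1.04, 1.04, 0.879, 0.886 and 0.7297 in the 7 libraries, in order of region and time, overlapped.

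The transcription factors were mostly expressed before injury. STAT2, a partner in the complex that binds the ISRE, was at 78.9, 89.2 and 79.8 in intact microglia/macrophage-like and 92.3, 101 and 86.97 in intact oligodendrocyte-like nuclei. After injury it was 130.1, 107, 89.5 and 99.8 and 129, 94.03, 84.6 and 78.7, within 2-fold throughout in both. IRF9, the DNA-binding partner (chr7:86248586-86254350), moved further, to 25.05, 16.8, 15.2 and 17.5 in oligodendrocyte-like nuclei from 7.72, 7.79 and 6.96, at least 2-fold higher at all 4 times. The microglial levels were 50.6, 42.9, 32.7 and 48.4, from 21.99, 20.4 and 22.2. In oligodendrocyte-like nuclei IRF9 at 6 mpi was thus about as far from the intact level as at 14 dpi. In microglia/macrophage-like nuclei it was called at least 2-fold higher at 7 dpi and 6 mpi, and not at 14 or 30 dpi.

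IRF1 and IRF7 amplify the response. Microglia/macrophage-like nuclei held IRF1 at 6.304, 4.03 and 6.69 intact and 14.9, 26.6, 7.96 and 5.95 after injury, highest at 14 dpi and back among the intact values at 6 mpi. IRF7 was 3.08, 1.08 and 3.003 and then 11.6, 8.35, 5.86 and 6.59, called at 7 and 14 dpi. In oligodendrocyte-like nuclei neither was called. IRF1 stood there at 0.275 in the intact lumbar library and 1.09 at 7 dpi, with 7 and 24 UMIs, and IRF7 at 0.393 and 1.41, with 10 and 31 UMIs, so that the levels themselves were 3.96-fold and 3.58-fold apart.

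The 4 IFIT genes bind viral RNA and lie next to each other on chromosome 9, from IFIT2 (chr9:89563460-89570421) through IFIT3 and IFIT1 to IFIT5 (chr9:89672665-89679799). All 4 were called at all 4 times in microglia/macrophage-like nuclei. IFIT1 went from 0.7005, 0.897 and 1.36 to 12.5, 6.61, 8.75 and 8.196, IFIT2 from 3.22, 1.97 and 3.69 to 22.8, 15.5, 22.5 and 14.1, and IFIT3 from 1.96, 1.43 and 1.64 to 9.08, 9.07, 11.3 and 10.3. The 6 mpi levels of IFIT3 and IFIT5 could not be separated from those of 7 dpi by counting error, with log2 ratios of 0.18 (-0.27 to 0.62) for IFIT3 and -0.28 (-1.09 to 0.47) for IFIT5. In oligodendrocyte-like nuclei, IFIT1 was 8.08, 5.51 and 6.21 intact and 17.2, 19.7, 12.4 and 7.08 after injury, and IFIT3 4.39, 4.103 and 4.09 and 9.77, 10.3, 6.63 and 6.85, called at 7 and 14 dpi. IFIT2, at 1.65-fold the intact lumbar level at 7 dpi, and IFIT5, at 0.793-fold, were not called in this class.

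The MX genes encode dynamin-like GTPases and are also neighbours (MX1 at chr3:5189230-5224218 and MX2 at chr3:5231296-5275461). MX1 in microglia/macrophage-like nuclei stood at 45.95, 38.1 and 39.7 in the intact libraries and at 199, 116, 149 and 114 after injury. MX2 in the same nuclei was 137, 126 and 129 and then 191, 115, 138 and 166. MX2 at 14 dpi lay below the intact libraries and at 30 dpi just above them, while MX1 lay above them at each time. In oligodendrocyte-like nuclei MX1 went from 2.18, 2.74 and 1.46 to 30.1, 25.2, 18.6 and 9.78, 20.7-fold (95% interval 14.9 to 29.7) at 7 dpi and 6.72-fold (95% interval 4.52 to 10.2) at 6 mpi. Astrocyte-like nuclei had 7.87, 5.85 and 3.95 intact and 99.7, 77.6, 72.3 and 22.8 after injury, which was 25.2-fold (95% interval 16.5 to 39.6) at 7 dpi. Precursor-like nuclei had 1.45, 1.596 and 1.06 and then 20.4, 10.1, 14.3 and 16.4, and neuron-like nuclei 5.88, 4.91 and 5.09 and then 10.2, 8.37, 7.19 and 6.61. MX2 in oligodendrocyte-like nuclei had 4 UMIs in the intact lumbar library and 32 at 7 dpi, and its log2 ratio of 1.08 was -0.61 without removal of doublets. MX1 at 7 dpi was the largest log2 ratio of level plus 1 in oligodendrocyte-like and astrocyte-like nuclei among the 28 genes, while in neuron-like nuclei it was not called.

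IFI6, a membrane protein that restrains cell death, IFI44 and IFI44L did not share a course in all glia. IFI6 in oligodendrocyte-like nuclei was 1.94, 1.51 and 1.06 in the intact cord and 15.3, 28.5, 10.7 and 1.35 after injury. It peaked at 14 dpi, at 26.8-fold (95% interval 18.2 to 41.1), and at 6 mpi it lay among the intact libraries, with 12 UMIs. The peak at 14 dpi recurred in microglia/macrophage-like (9.11, 7.71 and 7.098 to 40.3, 56.7, 34.6 and 19.8), astrocyte-like (4.46, 3.11 and 5.35 to 30.3, 84.0, 37.1 and 9.11) and precursor-like nuclei (5.06, 2.75 and 3.19 to 22.2, 26.7, 17.4 and 7.65). In neuron-like nuclei IFI6 was already at 15.9, 13.1 and 17.03 in the intact libraries and was at 16.0, 24.6, 21.5 and 8.76 after injury, within 2-fold.

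IFI44 in oligodendrocyte-like nuclei had 4 UMIs in the intact lumbar library and 169, 153, 136 and 31 after injury, levels of 7.68, 9.83, 4.96 and 3.48 from 0.316, 0.461 and 0.157. Precursor-like nuclei had 0, 5 and 0 UMIs in the intact libraries, in the order cervical, thoracic and lumbar, and 48, 46, 74 and 31 after injury. With 3 counts set in place of 0 in the intact lumbar library, the precursor level was 43.9-fold higher at 7 dpi and 53.1-fold at 6 mpi. These folds leave out the counting error of the injured libraries. In microglia/macrophage-like nuclei IFI44 was 33.2, 27.1 and 23.9 and then 141, 94.1, 86.9 and 135, and the log2 ratio of 6 mpi to 7 dpi was -0.06 (-0.18 to 0.05). IFI44L, its neighbour on chromosome 1, was at 177, 204 and 171 and then 375, 246, 302 and 239.8 in those nuclei, 2-fold higher only at 7 dpi. Astrocyte-like nuclei held IFI44L at 2.35, 3.22 and 1.15 intact and 29.03, 25.1, 35.8 and 21.2 after injury, at least 2-fold higher at each time. In oligodendrocyte-like nuclei it was 2.14, 2.26 and 0.944 and then 4.82, 4.31, 6.56 and 2.92, and its log2 ratio of 1.01 at 6 mpi was -0.23 without removal of doublets. In precursor-like nuclei the 3 intact levels of 17.2, 21.7 and 4.68 were far apart and were followed by 4.67, 20.2, 30.9 and 13.1. The 7 dpi level was that of the intact lumbar library, only the 30 dpi level lay above all 3 intact ones, and the log2 ratio of 1.31 at 6 mpi was -0.14 against the mean of the 3.

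The ISG15 system attaches and removes a ubiquitin-like protein. ISG15 itself was scarce in these nuclei, with 5, 1 and 0 UMIs in the intact microglia/macrophage-like sums and 34, 33, 28 and 4 after injury. With 3 counts set in place of 0 in the intact lumbar library, its level at 7 dpi was 5.31-fold higher than there. This fold leaves out the counting error of the 7 dpi library. It refers to the intact lumbar library alone, and the ratio to the intact cervical library, with its 5 UMIs, was smaller. HERC5, the ligase that attaches ISG15 (chr5:86845034-86895418), went from 19.1, 20.6 and 18.6 to 74.9, 58.5, 48.9 and 64.9 in microglia/macrophage-like nuclei and from 3.398, 2.55 and 2.24 to 14.2, 8.098, 6.82 and 5.06 in oligodendrocyte-like nuclei. Both series stayed above the 3 intact libraries at all times.

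HERC6, the neighbouring relative (chr5:86766549-86831344), differed more between classes. It was 53.2, 54.1 and 56.1 and then 137, 107, 91.99 and 105 in microglia/macrophage-like nuclei, 2-fold higher at 7 dpi alone. Oligodendrocyte-like nuclei had 2.55, 1.91 and 1.22 and then 23.7, 16.3, 12.9 and 6.41, 19.5-fold (95% interval 13.5 to 28.9) at 7 dpi, and astrocyte-like nuclei had 3.99, 2.74 and 3.95 and then 44.2, 33.2, 35.8 and 44.01, as high at 6 mpi as at 7 dpi. In neuron-like nuclei HERC6 was 21.6, 17.2 and 20.04 and then 44.5, 22.9, 26.4 and 24.7, at least 2-fold higher at 7 dpi alone. USP18, which removes ISG15 and dampens the receptor, had 17, 10 and 1 UMIs in the intact oligodendrocyte-like sums and 294, 76, 90 and 13 after injury. Its microglial levels were 5.04, 2.42 and 3.28 and then 37.2, 24.4, 36.5 and 18.8, 11.3-fold (95% interval 7.55 to 17.8) at 7 dpi. The oligodendrocyte value at 7 dpi, 13.4, was 339.8-fold (95% interval 60.5 to 13467) the intact lumbar level, a wide interval that comes from the single intact UMI. The fold refers to that library alone, and the ratio to the intact cervical library, with its 17 UMIs, was smaller.

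PARP14 and PARP9 are ADP-ribosyltransferases on chromosome 2. PARP14 (chr2:153587993-153638739) in microglia/macrophage-like nuclei was 161, 164 and 159 in the intact cord and 164, 167, 156 and 152 after injury, 1.03-fold (95% interval 0.959 to 1.103) at 7 dpi. All 7 libraries lay between 152 and 167. In oligodendrocyte-like nuclei the same gene was at 0.971, 1.73 and 0.393 and then 8.82, 3.34, 4.05 and 2.14, and in astrocyte-like nuclei at 8.46, 6.44 and 6.88 and then 22.7, 31.5, 25.8 and 22.8. The oligodendrocyte comparison depends on the removal of doublets. Without it, a cluster of 607 nuclei led by MRC1, FKBP5 and TMIGD3, the first of them a macrophage gene, joined the class. Of these nuclei 194, 240 and 163 came from the intact cervical, thoracic and lumbar libraries. MRC1 and FKBP5 also led the main cluster of intact microglia/macrophage-like nuclei. Another cluster of 1145 nuclei, with 236, 287, 344 and 269 from the injured libraries, scored highest for oligodendrocyte markers under this setting. It had GPNMB and ITGAX among its leading genes and was left unnamed. The setting thus changed the intact and the injured side of the class unequally. The log2 ratio of PARP14 was then -0.21 at 14 dpi, -0.032 at 30 dpi and -0.29 at 6 mpi. PARP9 (chr2:153752257-153789491) was 4.42, 4.72 and 3.85 and then 19.4, 14.8, 11.9 and 8.54 in oligodendrocyte-like nuclei and 49.03, 47.2 and 42.7 and then 78.7, 85.6, 73.4 and 73.9 in microglia/macrophage-like nuclei, where it missed the 2-fold limit at each time.

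RSAD2, which encodes viperin, and CMPK2, a nucleotide kinase beside it on chromosome 13, were not called in microglia/macrophage-like nuclei at any time. RSAD2 in microglia/macrophage-like nuclei was 10.8, 9.32 and 10.9 and then 9.98, 12.01, 11.96 and 8.36, within or close to the intact range. The 7 dpi level was 0.914-fold (95% interval 0.693 to 1.21) that of the intact lumbar cord. CMPK2 was 14.4, 14.6 and 19.9 and then 37.8, 27.2, 17.3 and 15.1. In neuron-like nuclei, RSAD2 was at 13.4, 12.6 and 12.7 and then 15.8, 15.99, 18.5 and 10.7. XAF1, which promotes cell death, went from 15.6, 16.5 and 13.1 to 32.6, 28.3, 35.3 and 56.6 in microglia/macrophage-like nuclei. Its highest level was at 6 mpi, higher than at 7 dpi by a log2 ratio of 0.80 (0.60 to 1.00).

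**Figure D3:**
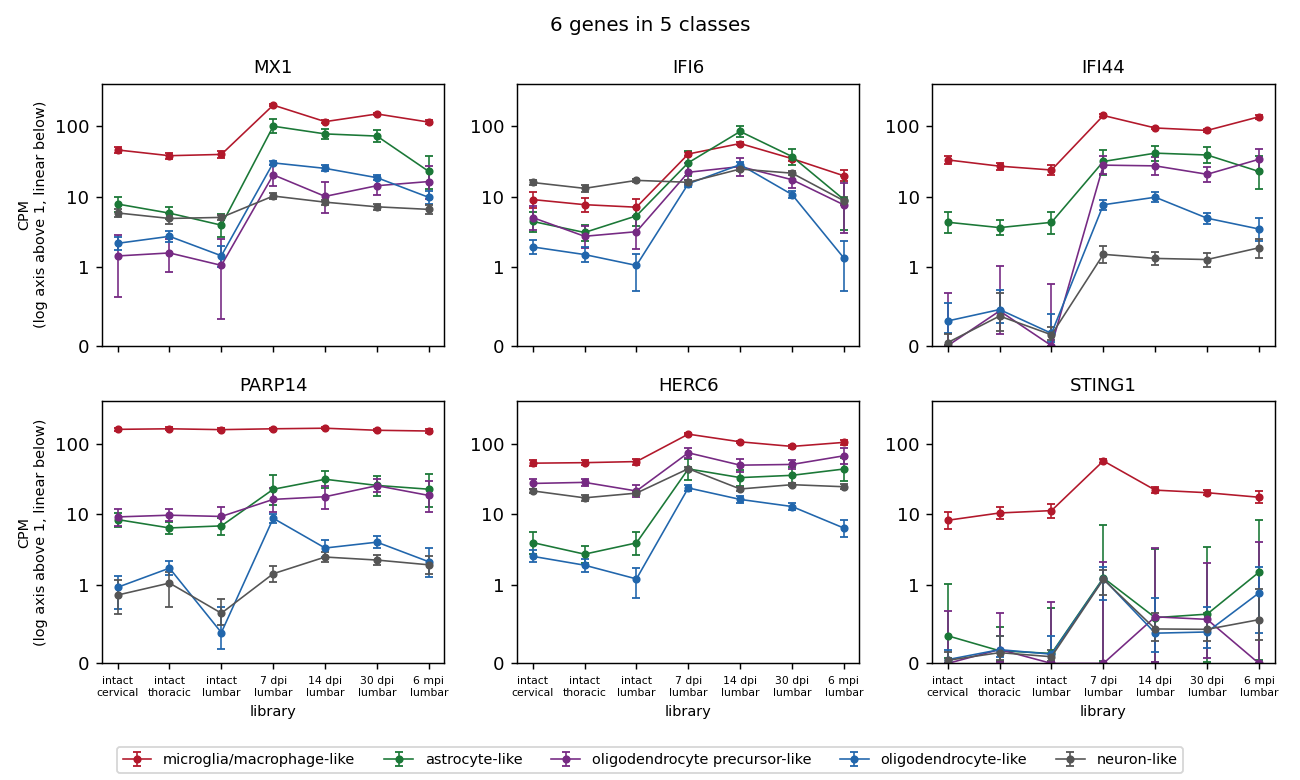
Level (y axis, CPM, log axis above 1 and linear below) of 6 genes in 5 classes over the 7 libraries (x axis); bars are 95% Poisson intervals. MX1 went from 39.7 in the intact lumbar library to 199 at 7 dpi in microglia/macrophage-like nuclei and from 1.46 to 30.1 in oligodendrocyte-like nuclei, while PARP14 stayed at 152 to 167 in microglia/macrophage-like nuclei after injury.

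Many of the genes stood highest at 7 dpi. At that time, 18 of 27 genes had their highest injured level in microglia/macrophage-like nuclei (28.4% of all genes did), 17 of 24 in oligodendrocyte-like (34.2%), 8 of 15 in precursor-like (25.8%), 7 of 16 in astrocyte-like (31.3%) and 11 of 27 in neuron-like nuclei (31.3%). All 4 injured libraries lay above all 3 intact ones for 21 of 26 genes in microglia/macrophage-like nuclei (13.7% of all genes), 10 of 18 in oligodendrocyte-like (12.6%), 9 of 13 in precursor-like (7.60%), 13 of 16 in astrocyte-like (9.22%) and 11 of 27 in neuron-like nuclei (9.38%). At 6 mpi the level was below that of 7 dpi for 25 of 27 genes in microglia/macrophage-like nuclei (40.1% of all genes), the exceptions being XAF1 and IFIT3. The counts were 23 of 24 in oligodendrocyte-like (49.5%), 8 of 13 in precursor-like (44.1%), 12 of 15 in astrocyte-like (47.2%) and 19 of 26 in neuron-like nuclei (48.2%). The times are different monkeys, so a lower level at a later time is a difference between animals too.

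The share of nuclei with several of the genes was counted. Each nucleus was thinned at random to 1000 UMIs, which left out none. In microglia/macrophage-like nuclei, 7.26%, 5.83% and 6.19% of intact cervical, thoracic and lumbar nuclei held at least 3 of the 28 genes (129 of 2084 in the lumbar library, exact binomial 95% interval 5.19 to 7.31). After injury the shares were 24.7% (23.2 to 26.1), 19.9%, 18.1% and 18.1%. Unthinned, the intact lumbar and 7 dpi shares were 41.9% and 75.9%. A share of 9.40% held at least 5 genes at 7 dpi, against 0.576% in the intact lumbar cord, and a single nucleus held up to 16.

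In oligodendrocyte-like nuclei the shares with at least 3 genes were 0.137%, 0.123% and 0.0287% in the intact libraries and 2.06%, 1.51%, 0.873% and 0.155% after injury. The 6 mpi value rests on 3 of 1937 nuclei (interval 0.0320 to 0.452) and is not separable from the intact cervical share. Unthinned, the intact lumbar share was 7.15% and the 7 dpi share 18.5%. The intact lumbar share of 0.0287% is 1 of 3484 nuclei.

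**Figure D4:**
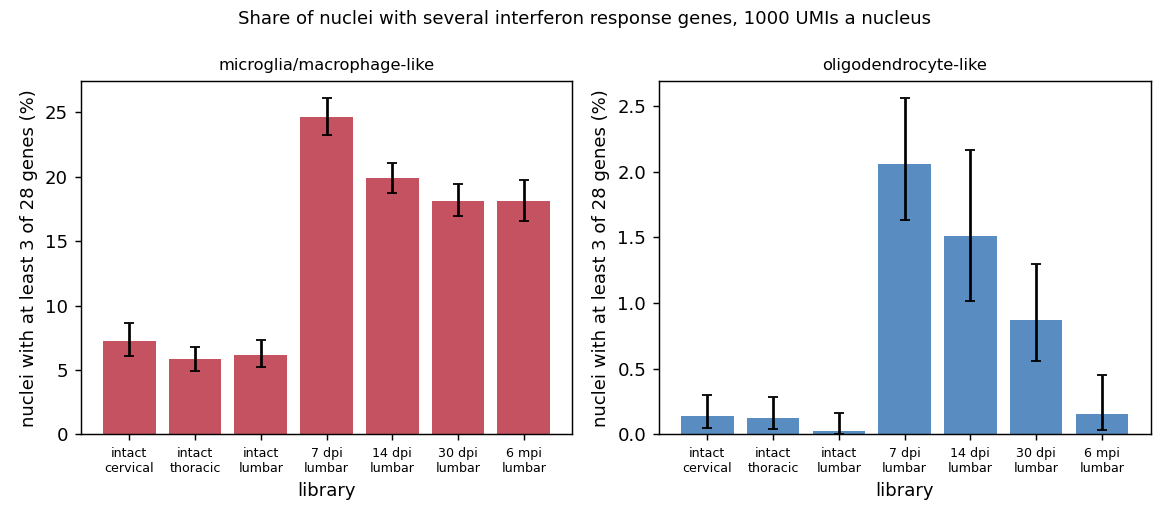
Share of nuclei (y axis, percent, bars from 0) with at least 3 of 28 genes after thinning to 1000 UMIs, in the 7 libraries (x axis), for microglia/macrophage-like (left) and oligodendrocyte-like nuclei (right, another scale); error bars are exact binomial 95% intervals. The share was 24.7% at 7 dpi and 6.19% in the intact lumbar library on the left, and 2.06% and 0.0287% on the right.

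Intact and injured nuclei lay mostly in different clusters in the microglia/macrophage-like and oligodendrocyte-like classes, and shared clusters in the other 3. Intact microglia/macrophage-like nuclei were mainly in a cluster led by MRC1 and FKBP5, those of 7 dpi in one led by SLC11A1 and CD74, those of 14 dpi in one led by SRGN and FOS, and those of 30 dpi and 6 mpi were spread over several. Levels could be set side by side within a library. At 30 dpi the cluster led by SRGN and FOS (298 nuclei) held 3218 CPM of the 28 genes, the one led by CCL4L1 and PMAIP1 (2141 nuclei) 1776, and the one led by ITGAX and GPNMB (1277 nuclei) 1284. At 6 mpi the cluster led by SLC11A1 and CD74 (929 nuclei) held 2021 and the one led by GPNMB and CHIT1 (1171 nuclei) 1382. At 7 dpi the dividing cluster led by TOP2A (446 nuclei) held 1681 and the SLC11A1-led one (2938 nuclei) 2418. Thus the clusters led by GPNMB, a glycoprotein of phagocytes, had lower sums than the largest other cluster of their own library. This is a description, since the clusters were formed on the same counts. Precursor-like nuclei lay nearly all in a single cluster, led by VCAN and PTPRZ1, in every library. Astrocyte-like nuclei lay in a cluster led by ITGB4 and SLC14A1 and in one led by ITPRID1 and SLC1A2, with 511 and 466 nuclei in the intact lumbar library. These clusters held 58 and 40 nuclei at 7 dpi, 88 and 163 at 14 dpi, 98 and 49 at 30 dpi, and 38 and 79 at 6 mpi. The largest neuron-like cluster, led by HTR2C and CNTN5, held 1172 nuclei of the intact lumbar library and 571, 623, 517 and 285 after injury.

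In oligodendrocyte-like nuclei of 7 dpi, a cluster led by FGFR2 (1105 nuclei) held 655 CPM and one led by QDPR and CNDP1 (2649 nuclei) 289. Intact nuclei of the class lay in other clusters, with sums of 127 to 236 in the 3 largest of the lumbar library. Both 7 dpi clusters held more than 236, the highest of these. At Leiden resolution 2 a cluster of 225 nuclei, 186 of them from 7 dpi, 18 from 14 dpi and 21 from 30 dpi, scored highest for oligodendrocyte markers and had HERC5, USP18 and MX1 among its 10 leading genes. It held 2488 CPM of the 28 genes. It was left unnamed because its leading genes included those of another class, and it is outside the oligodendrocyte-like values at that resolution.

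Free RNA in droplets can carry transcripts of 1 class into another. In the other 4 classes the 8 microglia markers had a median level of 0.319% to 3.42% of their level in microglia/macrophage-like nuclei of the same library, and CD68 or AIF1 had the highest share. The listed genes had a median of 17.3% in oligodendrocyte-like nuclei at 7 dpi, beside a marker median of 1.14% there, and of 50.2% in astrocyte-like nuclei, beside 3.11%. The summed marker level in oligodendrocyte-like nuclei was 10.9 CPM in the intact lumbar library and 53.9 at 7 dpi, and in astrocyte-like nuclei 20.6 and 201, so that microglial transcripts moved with the injury. In oligodendrocyte-like nuclei at 7 dpi, 15 of 27 genes lay above the highest marker share of 13.8% (AIF1), and 12 did not, among them IFI44 at 5.43%, PARP14 at 5.39%, STING1 at 2.14%, IFI44L at 1.28% and MX2 at 0.761%. MX1 was at 15.2%, HERC6 at 17.3%, EIF2AK2 at 30.8% and IFI6 at 37.9% there. In the intact lumbar library of this class the highest marker share was 25.1% (CD68), and 4 of 21 genes lay above it. At 6 mpi it was 9.38% (AIF1). Of the 6 genes called in oligodendrocyte-like nuclei at that time, IRF9 at 36.2% lay above it. The others lay below, with MX1 at 8.58%, HERC6 at 6.10%, IFI44 at 2.57%, PARP14 at 1.40% and IFI44L at 1.22%. In astrocyte-like nuclei at 7 dpi the highest marker share was 37.0% (AIF1), and 12 of 27 genes were at or below it. These included IFI44 at 22.3%, IFI44L at 7.73%, PARP14 at 13.9%, HERC5 at 21.9% and HERC6 at 32.2%, which are 5 of the 8 genes at least 2-fold higher at all 4 times there. In precursor-like nuclei the summed marker level was 45.7 CPM in the intact lumbar library and 93.3, 94.5, 100.8 and 114 after injury. Of the 4 genes higher at all 4 times there, IFI6, IFI44 and HERC6 lay above the highest marker share at each time. MX1 lay below it at 14 dpi (8.73% beside 23.2%) and 30 dpi (9.63% beside 16.6%), and IFI44L lay below it at each time. The summed marker level in neuron-like nuclei was 34.8 CPM in the intact lumbar library and 72.5, 87.5, 74.3 and 58.2 after injury. The highest marker share there was 7.80% at 7 dpi (CD68), and of the 4 genes called IFI44 at 1.08%, IFI44L at 0.777% and STING1 at 2.10% lay below it and HERC6 at 32.4% above. At 14 dpi IFI44, IFI44L and PARP14 lay below the highest marker share of 5.31% (AIF1) and HERC5 at 8.26% above, and IFI44 and IFI44L lay below the highest marker share of their own library at 30 dpi, as IFI44 did at 6 mpi. The share of all genes above the highest marker share was not computed, so the counts of listed genes above it are a description. The part of carried-over RNA in these genes' ratios was not tested.

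The other genes of the pathway came from a list of 79, of which 67 were found. Of the 7 interferon genes listed, 4 were found by symbol (IFNB1, IFNG, IFNK and IFNL1), and for these all nuclei of all libraries together held 15 UMIs, so that no source class of these 4 was detectable at this depth. The other 3 were not analysed here. Among the receptors, IFNAR2 in microglia/macrophage-like nuclei went from 144, 158 and 138 to 401, 320.4, 433 and 275 and IFNAR1 from 95.3, 104 and 92.7 to 89.98, 95.6, 109 and 99.3, while IFNGR1, the receptor of interferon gamma, went from 534, 489.9 and 738 to 475, 312, 265 and 299.6 and was called lower from 14 dpi on against the intact lumbar library, the highest of the 3. Of the tested pathway genes in microglia/macrophage-like nuclei, 19 of 58 were at least 2-fold higher at 7 dpi (8.84% of all genes), 13 of 58 at 14 dpi (5.58%), 14 of 58 at 30 dpi (7.79%) and 14 of 56 at 6 mpi (13.1%). At these times 2, 2, 2 and 3 were lower, beside 5.68%, 4.18%, 6.11% and 4.60% of all genes. Oligodendrocyte-like nuclei had 26 of 48 higher at 7 dpi (6.15%), 17 of 43 at 14 dpi (3.39%), 18 of 48 at 30 dpi (2.94%) and 11 of 38 at 6 mpi (6.69%). In this class 0 were lower at any time, beside 1.88%, 2.16%, 1.78% and 2.19% of all genes. The 0 is a count past the 2-fold limit and not a test. The genes called higher in oligodendrocyte-like nuclei included IRF8 at 7 and 14 dpi, and TLR4 and AIM2 at 14 dpi and 6 mpi. Pathway genes were not set beside the microglia markers, whose sum in these nuclei was higher after injury than in the intact lumbar library.

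The 5 pathway genes with the largest log2 ratios at 7 dpi in microglia/macrophage-like nuclei were IFI27 (0.546 to 12.7), BST2 (0.819 to 8.63), NLRC5 (10.4 to 49.5), DDX60 (36.6 to 125) and CXCL10, a chemokine (0.136 to 2.69). In oligodendrocyte-like nuclei they were NLRC5, the activator of class I antigen presentation genes (0.8496, 1.51 and 0.669 intact, 15.9, 11.9, 12.2 and 5.28 after injury), DDX60, B2M, the light chain of class I molecules (7.62, 6.74 and 6.77, then 41.3, 48.01, 40.7 and 20.1), DHX58 and ZC3HAV1. NLRC5 and DDX60 were among the 5 in both classes.

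Over the 35 pairs of class and library, the genes outside the interferon lists whose log2 level went most closely with the mean of the 28 were CD74 (Pearson r of 0.943), RPS3A (0.941), APOC1 (0.940) and MAMU-E (0.939), out of 11056 genes compared, with RPL13A, TPT1, CAPG, RPL38, ENSMMUG00000050829 and GATAD2A next. CD74, the invariant chain of class II molecules, is also a microglia marker here. The points share libraries and differ in depth, and the values are a description.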

How the data were processed

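Nuclei from 7 spinal cord libraries of rhesus monkeys, 1 library per group, were profiled with droplet single-nucleus RNA-seq. The deposited values are raw UMI counts per gene and barcode, which the authors obtained by aligning reads to Mmul_10 and counting with Cell Ranger 6.0.0. The annotation release is not given in the sources used here. Groups came from the sample labels.

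From these counts, nuclei with more than 500 genes and 1000 UMIs, under 10% mitochondrial and under 5% hemoglobin UMIs were kept. The 5% of nuclei with the highest Scrublet scores in each library were removed as doublets (3358 in all). The 63726 nuclei left were normalised to 10000 UMIs, and 2000 variable genes, 30 principal components, 20 neighbours and the Leiden algorithm at resolution 1 (seed 1) gave 39 clusters, with no integration of libraries (scanpy 1.11.5, leidenalg 0.10.2, Python 3.11.15). Clusters were named from marker lists. A cluster was left unnamed as a mixture only where the score of a second class was at least 0.2, a limit set after the clusters were seen.

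UMIs were summed per class and library and divided by the class total (counts per 1000000, CPM). With 1 library a group no test was possible, and no p-value is given. The intervals are exact Poisson, conditional binomial and Clopper-Pearson intervals at 95% (scipy 1.17.1), which cover counting error only. A count of 0 was set to 3 counts where a fold was given, and such a fold leaves out the counting error of the injured library. Libraries were not matched for depth, so shares of nuclei were computed after thinning to 1000 UMIs.

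All 29 genes are accounted for. A further gene of the pathway list is not reported here. The pathway genes named are the 5 with the largest absolute log2 ratio at the time of the highest microglial sum, and the genes most alike are the 10 with the highest correlation among those that reach 20 CPM. The genes and lists were chosen with earlier results of these data known. The calls were tested on simulated counts. Alternatives covered doublet removal, cluster resolution, the intact reference, centring, depth, the weight of nuclei, the filter, the pseudocount, the fold, and the number of genes per nucleus. Sequences and positions come from the RefSeq annotation and genome of Mmul_10.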

Additional observations from a re-analysis of the deposited data

Results flagged for a closer look

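Ependymal-like nuclei line the central canal and numbered under 50 in each injured library, so they entered no comparison above. Their summed level of the 28 genes was 385, 257 and 247 CPM in intact cervical, thoracic and lumbar cord (63, 109 and 319 nuclei). It was 3092 at 7 dpi (32 nuclei, Poisson 95% interval 2831 to 3371), 1783 at 14 dpi (48 nuclei) and 626 at 30 dpi (46 nuclei), and was picked out because these intervals lie above those of the intact libraries. At 7 dpi MX1 stood at 300.2 in these nuclei against 10.1 in the intact lumbar library, HERC6 at 336 against 4.04, and DDX58 at 402 against 49.8. The 6 mpi library held only 6 such nuclei.

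T cell-like nuclei were above the intact libraries in the same sense at 14 dpi, at 1360 (101 nuclei), beside 903, 843 and 673 in the intact libraries. Nuclei of clusters left unnamed, which held 449, 436 and 488 in the intact libraries, had 642, 994, 865 and 648 at the 4 times after injury. Each value comes from a single library, the unnamed nuclei are a mixture of clusters, and the differences were not tested.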

How the results depend on the processing

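Each class and time rests on 1 library, so leaving out a replicate was not possible, and the values below carry counting error alone. No paired analysis was possible because each group holds a single library. The summed ratio stayed positive in all 5 classes at all 4 times under each of 8 alternatives, and it moved by more than its counting interval in 0 of 20 cases at Leiden resolution 0.5 and in 10 of 20 after thinning. Of 200 gene ratios called, 198 stayed at 2-fold or more at resolution 0.5, 190 at resolution 2, 174 against the mean of the 3 intact libraries and 180 without doublet removal. The cause of the changes was not tested.

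Log2 ratios of the summed level that moved were, with nuclei weighted equally, 1.23 and 0.82 in microglia/macrophage-like nuclei (7 and 30 dpi), 1.32 and 0.84 in oligodendrocyte-like nuclei (7 and 30 dpi) and 1.78 in astrocyte-like nuclei (14 dpi). At resolution 2 they were 1.24 in microglia/macrophage-like nuclei (7 dpi) and 1.20, 1.02 and 0.68 in oligodendrocyte-like nuclei (7 dpi, 14 dpi and 6 mpi). With no limit on a second class, an alternative chosen after seeing the data, microglia/macrophage-like nuclei had 0.98 at 30 dpi and 0.97 at 6 mpi. Recentred on the median of all genes, microglia/macrophage-like nuclei had 0.87, 0.85 and 0.53 from 14 dpi on, oligodendrocyte-like nuclei 1.23 and 0.16 at 7 dpi and 6 mpi, astrocyte-like nuclei 1.56 at 7 dpi, and neuron-like nuclei 0.56 and 0.0071 at 7 dpi and 6 mpi. Without doublet removal, oligodendrocyte-like nuclei had 1.24, 0.96, 0.65 and 0.23, astrocyte-like nuclei 1.78 at 14 dpi and neuron-like nuclei 0.42 at 30 dpi. Thinned, oligodendrocyte-like nuclei had 1.43 and 0.94 at 7 and 30 dpi, precursor-like nuclei 0.86 at 14 dpi, astrocyte-like nuclei 1.60, 1.67 and 1.45 up to 30 dpi, and neuron-like nuclei 0.72, 0.28, 0.29 and 0.16. Against the mean of the intact libraries, oligodendrocyte-like nuclei had 1.26, 0.98, 0.67 and 0.22, precursor-like nuclei 1.16, 0.91 and 0.97 up to 30 dpi, and astrocyte-like nuclei 1.76 and 1.45 at 14 and 30 dpi.

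Counts of genes at least 2-fold higher that moved by over 1.5 times were 6 in oligodendrocyte-like nuclei at 30 dpi without doublet removal and 11 at 6 mpi at resolution 2. With a fold of 1.5 they were 22 in oligodendrocyte-like nuclei at 7 dpi (17.4% of all genes), 13 in astrocyte-like nuclei at 6 mpi (26.1%), and 11, 8, 8 and 7 in neuron-like nuclei (6.50%, 3.73%, 3.72% and 8.34%). Against the mean of the intact libraries they were 5 in precursor-like and 2 in neuron-like nuclei, both at 14 dpi. The filter also sets the number tested. With at least 50 UMIs they were 5 of 10 and 2 of 7 in precursor-like nuclei (14 dpi, 6 mpi), from 8 of 16 and 7 of 13, and 8 of 11 and 2 of 8 in astrocyte-like nuclei (7 dpi, 6 mpi), from 13 of 16 and 8 of 16. With no filter, over all 28 genes, they were 16, 13 and 12 in precursor-like nuclei (7 dpi, 14 dpi, 6 mpi) and 22 and 14 in astrocyte-like nuclei (7 dpi, 6 mpi). In neuron-like nuclei they were 4 and 6 when thinned (30 dpi, 6 mpi), 1 with equal weights (30 dpi), and 9, 9, 9 and 5 with a pseudocount of 0.1. Shares of all genes called were computed for the fold of 1.5 and the pseudocount of 0.1 alone. The other counts here have no background beside them and are a description.

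With at least 2 genes per nucleus instead of 3, the microglia/macrophage-like shares were 24.5%, 22.5%, 21.3%, 44.3%, 39.4%, 38.8% and 38.5% in the order of region and time, and the oligodendrocyte-like shares 1.19%, 1.35%, 0.660%, 6.31%, 4.38%, 3.56% and 2.07%. With at least 5 they were 0.666%, 0.595%, 0.576%, 9.40%, 4.35%, 4.21% and 3.81%, and 0%, 0.0245%, 0%, 0.528%, 0.365%, 0.364% and 0%. Log2 ratios that changed sign without doublet removal were, in oligodendrocyte-like nuclei, MX2 at 7 dpi (-0.61), PARP14 at 14 dpi (-0.21), 30 dpi (-0.032) and 6 mpi (-0.29) and IFI44L at 6 mpi (-0.23), and in astrocyte-like nuclei IFIT2 at 6 mpi (1.59). IFI44L in precursor-like nuclei at 6 mpi was -0.14 against the mean of the intact libraries.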
